A study of Canis lupus familiaris with 10 samples.

Results

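The genes considered here, 8 in number, guide leukocytes through lymphoid tissue. They were followed in CCH, the canine cutaneous histiocytoma, which is a benign skin tumor of young dogs that arises from the Langerhans cell lineage and usually regresses. The genes are the receptor CCR7 with its ligands CCL19 and CCL21, the receptor CXCR5 with its ligand CXCL13, the receptor CXCR4 with its ligand CXCL12, and S1PR1, a receptor for sphingosine-1-phosphate. They were selected by gene symbol, and all 8 were found among the 23266 genes of the expression table. All 8 also reached a normalized read count of at least 10 in at least 5 libraries, which was required for testing and left 12397 genes.

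The early stage (group 1 of the histological scheme of Cockerell and Slauson) and the late stage (group 3, described as lymphocyte enriched) were represented by 5 tumors each, from different pet dogs whose tumors had been removed for diagnosis and therapy. The early tumors came from 2 French Bulldogs, a Goldendoodle, a Terrier and a Boxer, aged 0.5 to 5 years where an age was given (n = 4). The late tumors came from a Rottweiler, a Beagle, a Pug, a Bullterrier and a Jack Russell Terrier aged 1.5 to 9 years. Because infiltration by lymphocytes is itself a criterion of the staging, the stages differ in cell composition by definition. Whole cross sections were used after removal of tissue next to the tumor, so that each value is an average over tumor cells, lymphocytes, vessels and stroma. In such bulk samples, fewer cells of a type and less RNA per cell cannot be told apart.

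CCR7 is carried by naive and central memory T cells and by dendritic cells that mature and leave the skin. It guides them to the T cell zones of lymph nodes, where stromal cells display CCL19 and CCL21. CCL21 is also made by the lymphatic vessels through which the dendritic cells enter. CXCR5 leads B cells and follicular helper T cells to CXCL13 in B cell follicles, CXCR4 responds to CXCL12 made by stromal cells in many tissues, and S1PR1 lets lymphocytes leave a tissue and is also abundant on endothelium. When lymphoid follicles form outside lymph nodes, these chemokines are among the genes described there.

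The libraries held 2973125 to 4439709 reads assigned to genes, and 3 reads in a library correspond to a normalized read count of 2.36 to 3.22. QuantSeq 3′ reads 1 fragment near the end of a transcript, so that values do not grow with gene length, and values are given per library as read counts after scaling by 1 factor per library. The libraries of each stage are numbered 1 to 5 only to name them. The DV200 value, the percentage of RNA fragments above a length limit, was 68.5 ± 2.46 in early and 73.2 ± 2.09 in late samples (SD, n = 5 each). The study lists early and late tumors in different RNA extraction batches, so that stage and batch cannot be told apart in any comparison. The 13 T cell markers (such as CD3E, CD5 and LCK) summed to 91.4 to 2826 in the early and 4587 to 7159 in the late libraries. Early libraries 3 and 4, with sums of 2826 and 1987, were thus not free of T cell transcripts, while early library 1 had 91.4. The part of RNA quality and of T cell content in the results was not tested.

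All 8 homing genes had a positive log2 fold change (log2FC, late minus early), with a median of 2.29 against -0.0037 over all genes tested. The late values of CCR7, CCL21 and CXCR4 lay above all early values, while those of the other 5 genes overlapped. A gene was called where its p-value after Benjamini-Yekutieli (BY) adjustment did not exceed 0.05 and its log2FC reached 1 in either direction. By this rule limma called 0 of the 8 genes, against 2.17% of all genes, or 1.06% of all genes as higher. With the Benjamini-Hochberg (BH) adjustment, 5 were called, namely CCR7, CCL19, CCL21, CXCR5 and CXCR4, against 5.53% of all genes called higher. On the recovered whole reads and with BY adjustment, DESeq2 called 3 (CCR7, CCL21 and CXCR4) against 3.87% of all genes called higher. In edgeR 0 were called, against 0.653% of all genes called higher. At an unadjusted p of at most 0.05 limma counted 6 of the 8 as higher, against 15.6% of all genes. None of the 8 genes changed the sign of its log2FC under another scaling, pseudocount, filter or test in which it was included. CXCR5 fell under the filter that required a mean of at least 50.

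**Figure D1:**
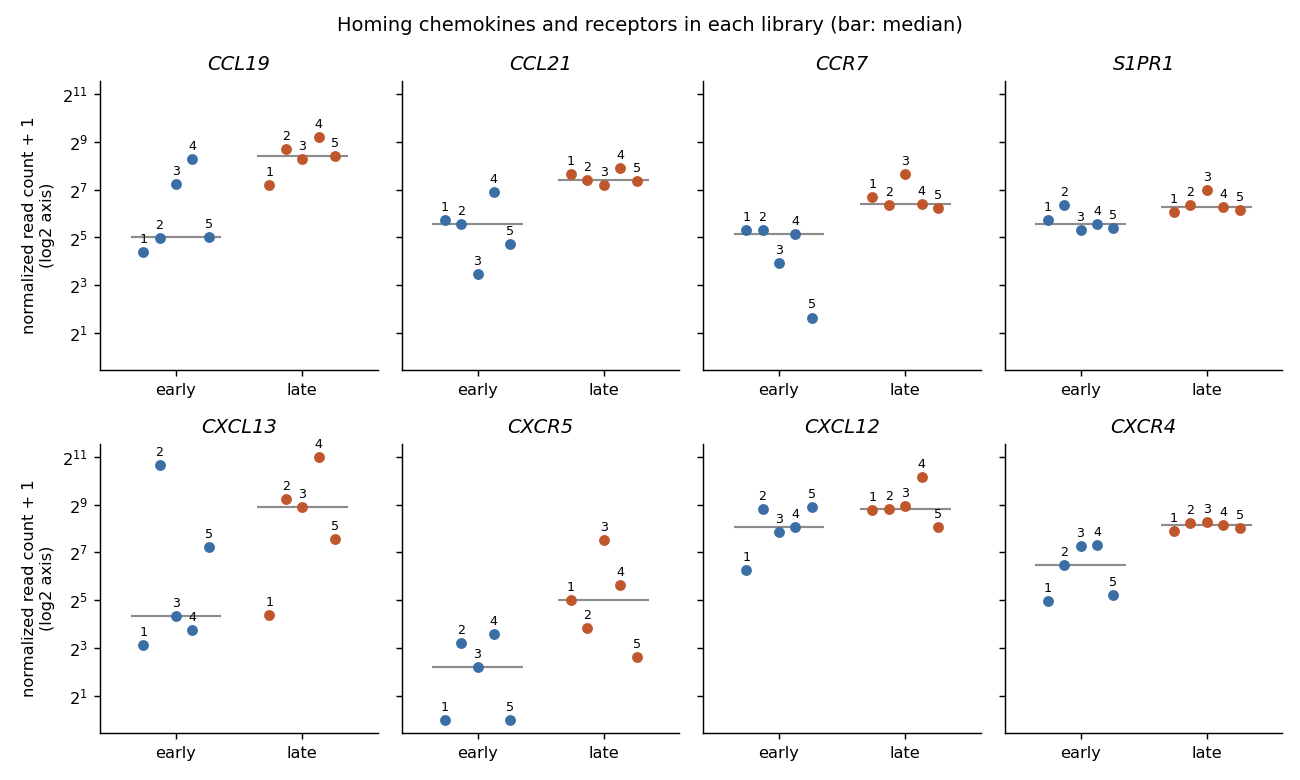
Normalized read count plus 1 (log2 axis) of the 8 homing genes in each early (blue) and late (orange) library, with the library number above each point and the median of a stage as a bar. The late points of CCR7, CCL21 and CXCR4 all lie above the early points, and CXCL13 spans a wide range in both stages.

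CCR7 had normalized read counts of 39.0, 39.1, 14.5, 34.7 and 2.15 in early libraries 1 to 5 and of 101, 81.8, 201, 82.8 and 73.4 in late libraries 1 to 5. Every late library was above every early library, with late library 3 the highest and early library 5, where the gene had 2 reads, the lowest. The mean was 25.9 ± 16.7 in early and 108 ± 53.1 in late CCH (SD, n = 5 each). The log2FC was 2.38 ± 0.63 (SE, 95% confidence interval 1.01 to 3.75), with a limma BY-adjusted p of 0.252, a BH-adjusted p of 0.0252 and a DESeq2 BY-adjusted p of 0.0132. The exact two-sided permutation test of this gene alone gave p = 0.00794, the smallest that 5 against 5 libraries allow. In all, 3 of the 8 genes separated the stages in this way, where 5.91% of all genes had all late values above all early values.

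CCL19, the ligand of CCR7 that stromal cells and dendritic cells of T cell zones secrete, measured 20.0, 30.7, 150.2, 313 and 31.1 in the early libraries, and 145, 412, 312, 587 and 339.9 in the late libraries. The stages overlapped, since early libraries 3 and 4 reached the level of late libraries 1 and 3, while the other 3 early libraries were far lower. The mean was 109 ± 126 in early and 359 ± 161 in late CCH (SD, n = 5 each). The log2FC was 2.37 ± 0.67 (SE, 95% confidence interval 0.92 to 3.83), with a limma BY-adjusted p of 0.327, a BH-adjusted p of 0.0326 and an exact permutation p of 0.0397. On the recovered reads the log2FC was 1.74 with edgeR and 1.72 with DESeq2, and the DESeq2 BY-adjusted p was 0.995.

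CCL21, the CCR7 ligand that binds to the surfaces on which it is displayed, measured 52.4, 46.5, 9.95, 119.7 and 25.8 in the early libraries and 198, 166, 144, 241 and 164 in the late libraries. The lowest late library was above the highest early library, early library 4. The late libraries were close to each other, with a coefficient of variation of 20.8% against 82.6% in early CCH. The mean was 50.9 ± 42.0 in early and 183 ± 38.0 in late CCH (SD, n = 5 each). The log2FC was 2.21 ± 0.49 (SE, 95% confidence interval 1.14 to 3.29), with a limma BY-adjusted p of 0.120, a BH-adjusted p of 0.0120, a DESeq2 BY-adjusted p of 0.0138 and an exact permutation p of 0.00794. Without early library 4 the limma BY-adjusted p was 0.038, the only call of any of the 8 genes when 1 library was left out. CXCR5 was tested in only 5 of these 10 fits, since it fell under the filter in the others.

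CXCL13, the chemokine of B cell follicles, measured 7.62, 1586, 19.0, 12.6 and 150.3 in the early libraries and 19.9, 593, 471, 2037 and 189.9 in the late libraries. High and low libraries occurred in both stages, with early library 2 second only to late library 4, and late library 1 as low as early library 3. The mean was 355 ± 691 in early and 662 ± 801 in late CCH (SD, n = 5 each). The log2FC of 2.40 ± 1.43 (SE, 95% confidence interval -0.70 to 5.49) did not pass, with a limma BY-adjusted p of 1, a BH-adjusted p of 0.279 and an exact permutation p of 0.206. Early library 2 decided the last value, which was 0.0317 without it, and the log2FC was then 3.60. On the recovered reads the log2FC was 0.91 with edgeR and 0.90 with DESeq2.

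CXCR5, the receptor of B cells and follicular helper T cells for CXCL13, measured 0, 8.37, 3.62, 11.0 and 0 in the early libraries and 30.8, 13.3, 184, 49.1 and 5.25 in the late libraries. These values rest on 27 reads in all early and 288 in all late libraries, of which late library 3 alone held 190. The counts of 0 in early libraries 1 and 5 allow values of up to 2.86 and 3.22. All late libraries but library 5, which had 5 reads, were above all early libraries. The mean was 4.60 ± 4.97 in early and 56.5 ± 73.3 in late CCH (SD, n = 5 each). The log2FC was 3.13 ± 0.98 (SE, 95% confidence interval 0.99 to 5.26), with a limma BY-adjusted p of 0.491, a BH-adjusted p of 0.0491, a DESeq2 BY-adjusted p of 0.221 and an exact permutation p of 0.0317. The gene reached a value of 10 in exactly 5 libraries, of which 4 were late, and so entered the test mainly through the stage in which it was higher. With a pseudocount of 5 in place of 1 the log2FC was 2.11, and with 0.5 it was 3.54.

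CXCL12, a chemokine of fibroblasts and other stromal cells, measured 75.2, 443, 231, 266 and 471 in the early libraries and 432, 442, 495, 1131 and 262 in the late libraries. Late library 4 and early library 1 stood at the ends, and the remaining libraries of both stages shared 1 range. The mean was 297 ± 163 in early and 552 ± 335 in late CCH (SD, n = 5 each). The log2FC of 0.97 ± 0.48 (SE, 95% confidence interval -0.070 to 2.01) did not pass, with a limma BY-adjusted p of 1, a BH-adjusted p of 0.192 and an exact permutation p of 0.135. With libraries scaled to the same column total the exact permutation p was 0.0476, and without early library 1 the log2FC was 0.54.

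CXCR4, the receptor of CXCL12 found on most leukocytes, measured 30.5, 87.5, 154, 158 and 36.5 in the early libraries and 236, 295, 312, 281 and 258 in the late libraries. All late libraries were above all early libraries and within a narrow range, with a coefficient of variation of 10.9% against 65.8% in early CCH. The mean was 93.3 ± 61.4 in early and 276 ± 30.1 in late CCH (SD, n = 5 each). The log2FC was 1.86 ± 0.42 (SE, 95% confidence interval 0.94 to 2.77), with a limma BY-adjusted p of 0.127, a BH-adjusted p of 0.0127, a DESeq2 BY-adjusted p of 0.0178 and an exact permutation p of 0.00794. The receptor thus separated the stages and its ligand did not, but a difference between their log2FC values was not tested.

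S1PR1 measured 52.4, 80.9, 38.9, 46.5 and 40.8 in the early libraries and 66.6, 80.9, 124, 76.7 and 69.2 in the late libraries. Late library 3 was above all others, and early library 2 was as high as late library 2. The mean was 51.9 ± 17.1 in early and 83.5 ± 23.3 in late CCH (SD, n = 5 each). The log2FC of 0.69 ± 0.26 (SE, 95% confidence interval 0.13 to 1.25) was under the fold threshold and did not pass, with a limma BY-adjusted p of 0.900, a BH-adjusted p of 0.0900, a DESeq2 BY-adjusted p of 0.826 and an exact permutation p of 0.0397.

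The exact test of single genes thus gave p-values of at most 0.05 for 6 of the 8 genes, against 14.4% of all genes with such a value and a higher late mean. For CCR7, CCL21 and CXCR4, whose stages did not overlap, leaving out 1 library gives the smallest possible p by construction. When 1 library was left out, the p of CCL19 rose above 0.05 in 6 of the 10 cases (without early library 1, 2 or 5 or late library 2, 4 or 5), up to 0.0794. That of CXCR5 did so in 6 cases (without early library 1, 3 or 5 or late library 1, 3 or 4), up to 0.0635. That of S1PR1 did so in 9 cases, in all but the case without early library 2, up to 0.0794.

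**Figure D2:**
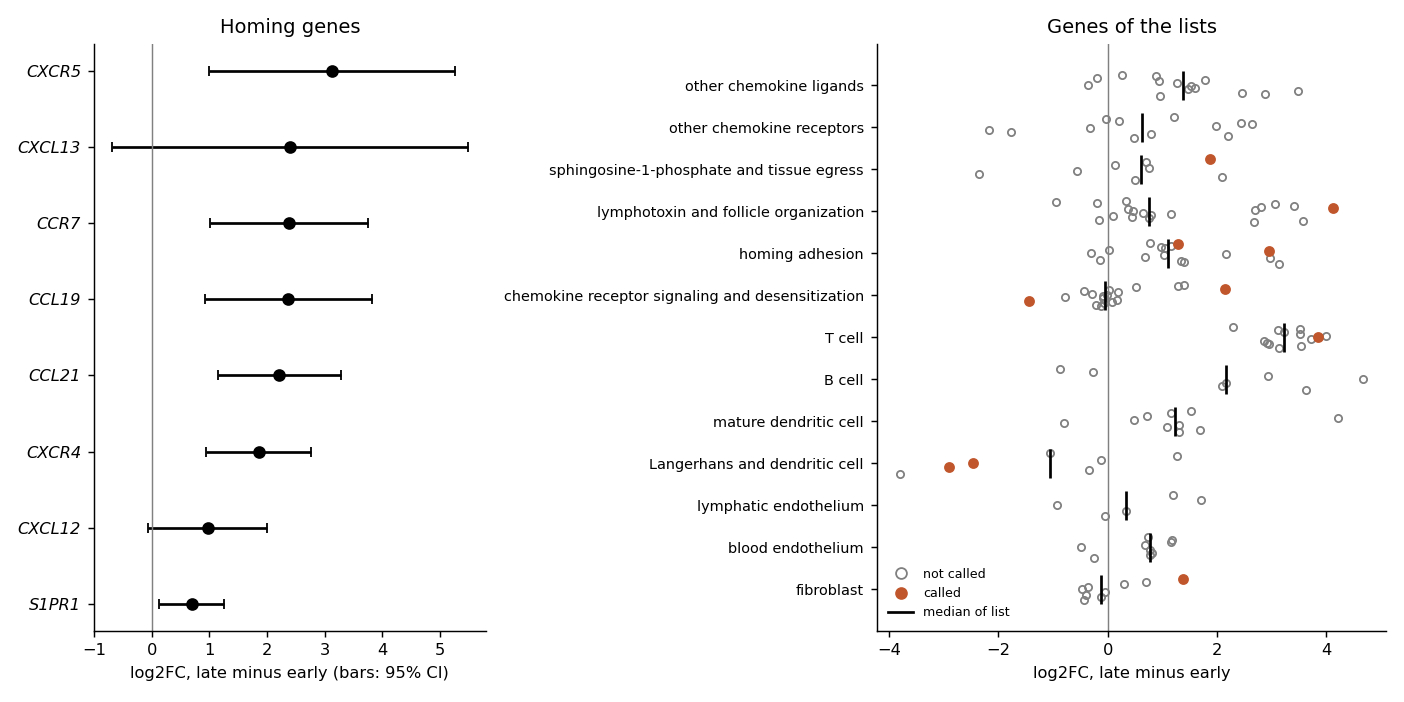
Left, log2FC (late minus early) of the 8 homing genes with 95% confidence intervals, of which only those of CXCL13 and CXCL12 include 0. Right, log2FC of the tested genes of 13 gene lists, with genes called by limma after BY adjustment as filled points and the median of a list as a bar. The T cell list lies highest, with a median of 3.23.

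The 8 genes did not all vary together within the stages. Correlations are given as Pearson's r of the deviations of log2(value + 1) from the stage means over the 10 libraries, as a description that rests on 5 libraries per stage sharing tissue composition and depth. The highest was that of CCL19 with CXCR4 (r = 0.83), followed by CXCL13 with CXCL12 (0.69), CXCR5 with CXCR4 (0.65) and CCR7 with S1PR1 (0.62). Ligands and receptors of the same axis had lower values, with 0.084 for CCR7 and CCL19, 0.44 for CCR7 and CCL21, 0.22 for CXCL13 and CXCR5 and 0.27 for CXCL12 and CXCR4. The pair of CCR7 ligands, CCL19 and CCL21, had an r of 0.12. CCL19 was highest in early libraries 3 and 4 among the early libraries, and CCL21 was lowest in early library 3.

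The same deviations were set beside those of the mean log2 values of marker lists. CXCR4 followed the T cell list (r = 0.93) and the list of mature dendritic cells (0.89), CCL19 the T cell list (0.75), and CXCR5 the lists of naive and central memory T cells (0.88), B cells (0.77) and mature dendritic cells (0.74). S1PR1 followed the B cell list (0.84). Other lists came close to some of these values, with 0.84 for CXCR4 and naive and central memory T cells and 0.71 for CXCR5 and plasma cells. CCL19 had 0.68 with mature dendritic cells and -0.68 with fibroblasts. CXCL12 had 0.65 with mature dendritic cells, 0.36 with fibroblasts and -0.51 with keratinocytes. CXCL13 had 0.59 with lymphatic endothelium, 0.54 with B cells and 0.52 with macrophages. CCR7 had an r of 0.069 with the T cell list, 0.33 with the list of naive and central memory T cells, 0.50 with B cells and 0.11 with mature dendritic cells. CCL21 had an r of 0.58 with blood endothelium and 0.37 with lymphatic endothelium, but also of 0.51 with keratinocytes, 0.46 with neutrophils and -0.51 with Langerhans and dendritic cells. For CXCR4 and CCL19 the relation with the T cell list rested on the early libraries, in which all of these were lowest in library 1 and highest in libraries 3 and 4, while it was not seen among the late libraries. For CCR7 and the list of naive and central memory T cells the stages differed the other way, since both put the late libraries in the order 3, 1, 4, 2 and 5 from high to low but the early libraries in different orders. Late library 3 was highest for CXCR5, CCR7 and S1PR1 and also for the B cell list, whose sum there was 3557 against 632 to 872 at the lowest and the median late library.

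**Figure D3:**
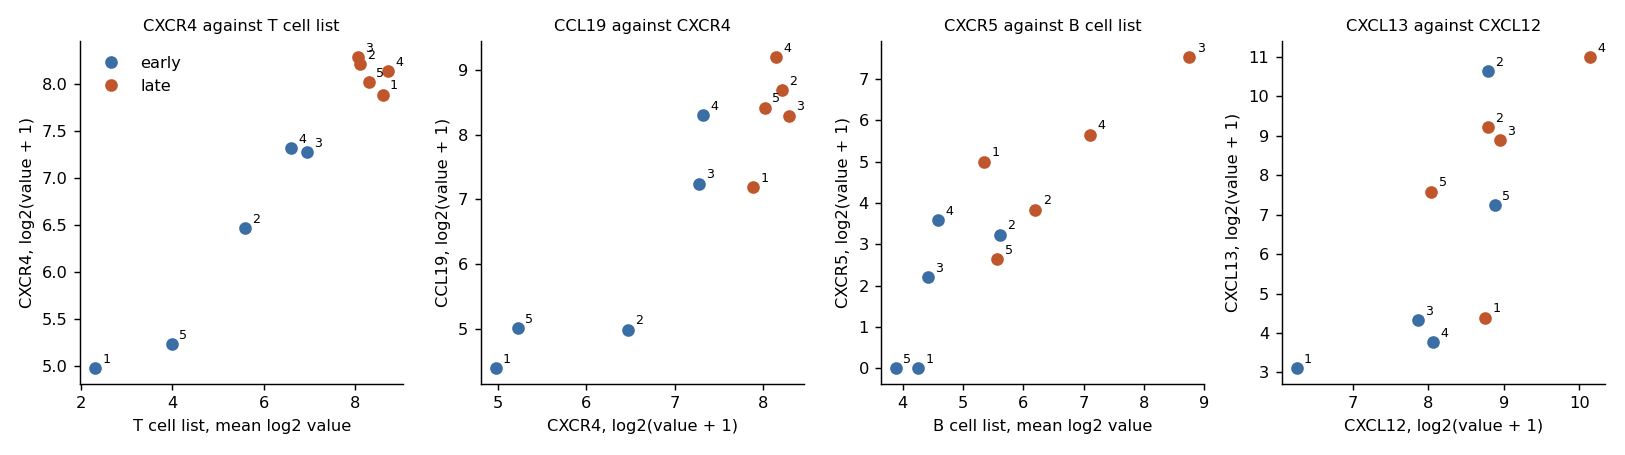
Pairs of measures in each library on log2(value + 1) scales, with early libraries in blue, late libraries in orange and library numbers beside the points. CXCR4 increases with the mean of the T cell list among the early libraries, CCL19 is high where CXCR4 is high, CXCR5 is highest in late library 3 where the B cell list is highest, and CXCL13 and CXCL12 are both highest in late library 4.

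Ratios within a library depend on the scaling of libraries only through the pseudocount of 1. They were used to compare the genes other than CCL19 and CXCL13 with markers of cells known to carry or make them. A ratio is the log2 value of the gene minus the mean log2 value of the list, and 8 ratios were tested with exact permutation tests and BH adjustment over them. None passed at an adjusted p of 0.05, and 3 had an unadjusted p of at most 0.05. Relative to T cell markers, CXCR4 was 1.17 ± 0.90 in early and -0.25 ± 0.41 in late CCH (SD, n = 5 each), and all 5 late libraries were below all early libraries. The difference in the log2 ratio was -1.42 (exact permutation p = 0.00794, adjusted 0.0635). S1PR1 relative to T cell markers was 0.59 ± 2.02 in early and -1.999 ± 0.59 in late CCH (difference -2.59, exact permutation p = 0.0159, adjusted 0.0635, n = 5 each), with 4 late libraries below all early libraries. The T cell markers themselves rose in late CCH, with a median log2FC of 3.23, and lymphocyte content differs with stage by definition. Any gene that rose less than these markers, or did not change, has a lower ratio in late CCH. These ratios and their p-values thus show only that CXCR4 and S1PR1 rose less than the T cell markers. Without early library 1, where these markers were lowest, the differences were -1.05 for CXCR4 and -1.88 for S1PR1. CCL21 relative to markers of lymphatic endothelium was 0.30 ± 1.18 in early and 2.07 ± 0.46 in late CCH (difference 1.77, exact permutation p = 0.0317, adjusted 0.0847, n = 5 each), and 2 late libraries were above early library 4, the highest early library.

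The other 5 ratios did not pass before adjustment either. CCR7 relative to T cell markers was -0.80 ± 2.37 in early and -1.70 ± 0.76 in late CCH (difference -0.90, exact permutation p = 0.548, n = 5 each). Early library 1, with a ratio of 3.02 at very low T cell markers, set this direction, and without it the difference was 0.059. Relative to the markers of mature dendritic cells CCR7 differed by 1.11 (exact permutation p = 0.206), CXCR5 relative to B cell markers by 1.08 (0.206), CXCL12 relative to fibroblast markers by 0.91 (0.167) and S1PR1 relative to blood endothelium by 0.095 (0.746), each with an n of 5 per stage. The CXCR5 difference depended on the pseudocount, with 0.57 at 5 and 1.32 at 0.5, and was 0.70 without early library 1. The ratio of S1PR1 to blood endothelium lay between -0.51 and 0.76 in all 10 libraries.

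**Figure D4:**
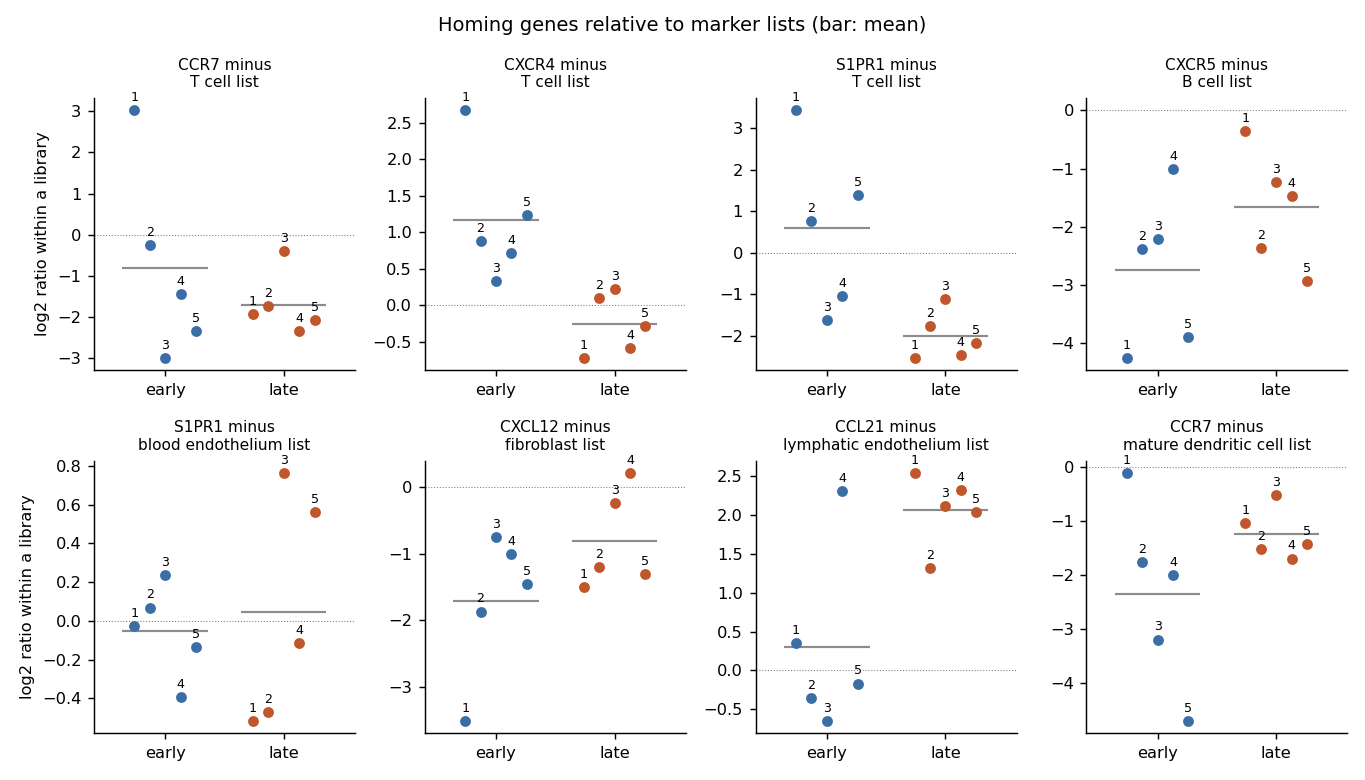
Log2 ratio of a homing gene to the mean of a marker list within each library, with library numbers above the points and the stage mean as a bar. The scales differ between panels. CXCR4 relative to T cell markers is lower in all late than in all early libraries, and CCL21 relative to lymphatic endothelium is above 2 in 4 late libraries and in early library 4. The T cell markers are themselves higher in late CCH.

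For each of the 8 genes, the genes with the most similar pattern were looked up by the Pearson correlation of log2 values over the 10 libraries. CXCR4 resembled PTPRCAP (r = 0.989), CYFIP2 (0.987) and LCK (0.981), of which PTPRCAP encodes a partner of the leukocyte phosphatase CD45 and LCK the kinase of the T cell receptor. CCL19 resembled PPP1R35 (0.969), RAPGEF6 (0.966) and the lymphocyte receptor CD96 (0.956). CXCR5 resembled SLC9A8 (0.960), DLA-DOA (0.950), which encodes a chain of a class II chaperone of B cells, and CR1L (0.949). CCL21 resembled ARHGAP35 (0.958), RUNX1T1 (0.957) and GJA4 (0.955), a connexin of arterial endothelium.

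S1PR1 resembled SETBP1 (0.961), the proton channel gene HVCN1 (0.939) and POMGNT1 (0.928). CCR7 resembled GBA2 (0.928), MAN2C1 (0.927) and HDGFL3 (0.927). CXCL13 resembled IRF2 (0.943), LMF1 (0.909) and GPR84 (0.899), and CXCL12 resembled ZEB2 (0.931), SLC8A1 (0.911) and PARP15 (0.911). When the stage means were removed first, the leading genes were LGALS9 (0.978), UBE2L6 (0.978) and LTA (0.976) for CXCR4, PAK1 (0.963), ANKS1A (0.958) and TOX4 (0.948) for CCL19, and TIE1 (0.930), GLIS2 (0.918) and SUV39H2 (0.916) for CCL21. TIE1 is a receptor of vascular endothelium. They were SETBP1 (0.922), the B cell factor PAX5 (0.904) and HES6 (0.898) for S1PR1, SSH1 (0.954), SLC9A8 (0.936) and DLA-DOA (0.935) for CXCR5, and ARHGAP27 (0.898), TUBA8 (0.894) and ST6GALNAC2 (0.888) for CCR7. For CXCL13 they were IRF2 (0.947), PGM2 (0.919) and TXNRD2 (0.897), and for CXCL12 PCDH7 (0.918), ZEB2 (0.907) and PEX13 (0.891). These are the highest values among 12397 genes over 10 libraries and serve as a description only.

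The counts in the lists that follow stand against the same shares of all genes tested. In limma with BY adjustment 1.06% of all genes were called higher and 1.11% lower, and with BH adjustment 5.53% and 3.52%. An unadjusted limma p of at most 0.05 in either direction was seen in 30.9%. Of the 12397 genes, edgeR with BY adjustment called 177 and DESeq2 810 in either direction, with 0.653% and 3.87% called higher. Among the other chemokine ligands, 14 of the 25 in the table were tested and none was called by limma with BY adjustment, while 3 were called higher with BH adjustment and 7 had an unadjusted p of at most 0.05. Their median log2FC was 1.37. CCL5, which draws effector T cells, had the highest log2FC (3.48 ± 0.90, BY-adjusted p = 0.223) with 945 ± 990 in early and 4919 ± 1177 in late CCH (SD, n = 5 each, no overlap). CCL23, an attractant of monocytes, had the lowest (-0.36 ± 0.69, BY-adjusted p = 1). Of the other receptors, 12 of 19 were tested, none was called with BY adjustment, and 6 had an unadjusted p of at most 0.05. With BH adjustment 2 were called higher and 1 lower. CXCR6, a receptor of tissue T cells, had the highest log2FC (2.64 ± 0.70, BY-adjusted p = 0.251). CCR10, a receptor of skin-homing lymphocytes, had the lowest (-2.16 ± 0.70, BY-adjusted p = 0.540). CCR6, the receptor called lower with BH adjustment, which Langerhans cells use to enter the epidermis and which is named here after its values were seen, had 784 ± 233 in early and 249.6 ± 144 in late CCH (log2FC -1.77 ± 0.37, BY-adjusted p = 0.0897).

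In the list on sphingosine-1-phosphate and tissue egress, 8 genes other than S1PR1 were tested and CD69 rose. CD69, an early activation antigen that binds S1PR1 and draws it from the cell surface, had 25.7 to 45.6 in the early and 79.5 to 214 in the late libraries, without overlap (log2FC 1.86 ± 0.28, limma BY-adjusted p = 0.0231). S1PR4, a receptor of lymphocytes, had a log2FC of 2.10 ± 0.67 (BY-adjusted p = 0.526), and SPHK1, a kinase that makes sphingosine-1-phosphate, had one of -2.35 ± 0.46 (BY-adjusted p = 0.0661, BH-adjusted p = 0.00660). CD69 was called in 5 of 10 fits without 1 library and lost its call without early library 1 or 5 or late library 2, 4 or 5.

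Genes of lymphotoxin signaling and follicle organization were tested for 19 of 24 listed, of which IL21 was called higher with BY adjustment (1.06% of all genes) and 8 with BH adjustment (5.53%). IL21, a cytokine of follicular helper T cells, measured 0, 7.44, 11.8, 3.94 and 3.22 in the early libraries and 25.9, 46.6, 102, 129 and 214 in the late libraries, so that the stages did not overlap (log2FC 4.13 ± 0.72, limma BY-adjusted p = 0.0426). IL21 reached a value of 10 in all 5 late libraries and 1 early library, so that it entered the test through the stage in which it was higher. Its BY-adjusted p in limma was 0.0599 with a pseudocount of 0.5 and 0.0828 among genes with a mean of at least 50, and its call was kept in 2 of 10 fits without 1 library, those without early library 2 or 3. GPR183, an oxysterol receptor that positions B cells at the follicle, had the lowest log2FC (-0.95 ± 0.37, BY-adjusted p = 1).

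In the homing adhesion list, 16 genes were tested, ITGAL and CD34 rose and 7 genes were higher with BH adjustment. ITGAL, the alpha chain of the lymphocyte integrin LFA-1, had 11.6 ± 8.53 in early and 89.2 ± 40.2 in late CCH (log2FC 2.95 ± 0.48, limma BY-adjusted p = 0.0323). CD34, a sialomucin of vascular endothelium, had 90.5 ± 15.2 and 224 ± 43.9 (log2FC 1.29 ± 0.19, BY-adjusted p = 0.0224, n = 5 each). ITGB7, an integrin of gut homing, had the lowest log2FC (-0.31 ± 0.29, BY-adjusted p = 1). ITGAL was called in 3 of 10 fits without 1 library, those without early library 3 or 4 or late library 3. CD34 was called in 5, and lost its call without early library 1 or 5 or late library 1, 2 or 4.

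In the list on signaling and desensitization of chemokine receptors, 18 genes were tested, with a median log2FC of -0.044, and RGS1 rose while PIK3CG fell. RGS1, which shortens signals of G protein-coupled receptors in lymphocytes, had 245 ± 169 in early and 1003 ± 331 in late CCH (log2FC 2.14 ± 0.37, limma BY-adjusted p = 0.0421) and was called in 2 of 10 fits without 1 library, those without early library 3 or late library 1. PIK3CG, the catalytic subunit of a phosphoinositide kinase that acts below these receptors, measured 884, 892, 861, 821 and 1341 in the early libraries and 431, 365, 357, 277 and 321 in the late libraries. All late values were below all early values, as in 6.05% of all genes (log2FC -1.44 ± 0.17, BY-adjusted p = 0.00812), and the call was kept in each of 10 fits without 1 library.

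The marker lists of cells that carry or make the homing genes moved as follows. All 13 T cell markers were tested, with a median log2FC of 3.23. All were called higher with BH adjustment, and CD6 was called with BY adjustment (3.85 ± 0.58, BY-adjusted p = 0.0226). CD28 had the highest (4.00 ± 0.82) and CD8A the lowest log2FC (2.29 ± 0.70). In the list of naive and central memory T cells, which often carry CCR7, 6 genes were tested, with a median log2FC of 2.41. Limma called 1 higher with BY and 3 with BH adjustment, and 4 had an unadjusted p of at most 0.05. With BY adjustment this was SATB1 (3.28 ± 0.48, limma BY-adjusted p = 0.0206). CD6 and SATB1 lost their calls without early library 5 or late library 1, 2, 4 or 5. FOXP1 had a log2FC of -0.070 ± 0.24. Of 7 tested B cell markers limma called none with BY and 3 with BH adjustment, edgeR 0 and DESeq2 3, and 5 had an unadjusted p of at most 0.05, with a median log2FC of 2.16, from 4.67 ± 0.88 for CD79B to -0.87 ± 0.50 for BANK1. The sum of all 10 B cell markers in the table was 654 to 820 in the early and 632 to 3557 in the late libraries.

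Among 10 tested markers of mature dendritic cells, which also carry CCR7, limma called none with BY and 5 with BH adjustment, edgeR 0 and DESeq2 3, and 6 had an unadjusted p of at most 0.05, with a median log2FC of 1.23. IDO1 had the highest log2FC (4.21 ± 0.78, BY-adjusted p = 0.0526) and CD86 the lowest (-0.81 ± 0.14, BY-adjusted p = 0.0460), under the fold threshold. Of 7 markers of Langerhans and dendritic cells, FLT3 (-2.89 ± 0.50, BY-adjusted p = 0.0434) and FCER1A (-2.47 ± 0.42, BY-adjusted p = 0.0401) fell. With edgeR the BY-adjusted p of FLT3 was 0.0559, so that edgeR called 1 gene of this list and DESeq2 called 4. Without 1 library FLT3 kept its call in 3 of 10 fits (without early library 2 or 4 or late library 3) and FCER1A in 1 (without early library 1). CD1A8 had the lowest log2FC (-3.80 ± 0.92, BY-adjusted p = 0.171) and IRF8 the highest (1.27 ± 0.33, BY-adjusted p = 0.217). The summed level of this list was 1112 to 2734 in early and 960.0 to 1613 in late CCH.

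Among markers of vessels and stroma, sources of CCL21 and CXCL12, 1 gene was called. None of the 5 tested markers of lymphatic endothelium was called by limma with either adjustment, by edgeR or by DESeq2, and 2 had an unadjusted p of at most 0.05, with a median of 0.33, from 1.71 ± 0.59 for MMRN1 to -0.93 ± 0.40 for FLT4. Their summed level, with those under the filter, was 219.8 to 1431 in early and 333 to 841 in late CCH, and no marker was at 0 in all libraries. None of 9 markers of blood endothelium was called by any of these tests, and 4 had an unadjusted p of at most 0.05, from 1.17 ± 0.40 for CLDN5 to -0.48 ± 0.64 for TEK. Of 9 fibroblast markers THY1 rose (1.38 ± 0.21, limma BY-adjusted p = 0.0226), while LUM had the lowest log2FC (-0.47 ± 0.42) and the median was -0.12. THY1 lost its call without early library 1 or late library 1, 2, 4 or 5.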

How the data were processed

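RNA of 10 FFPE tumors was sequenced with QuantSeq 3′. According to the methods of the study and the labels, the authors trimmed reads with Cutadapt, aligned them with STAR to CanFam3.1 and counted them with featureCounts, also on genes extended downstream. Reads with several mapping places were shared among them. The deposited values are a signal: normalized read counts, divided by the authors by 1 size factor per library. Within a tolerance of 1e-06, 100% of the values in the columns used were whole multiples of 1 read. The column names show the stage and a number that the labels do not give, so that columns were mapped to stages and not to single samples, and 11 of the 21 value columns match no sample and were not used. No sequence or coordinate of the genes was used here.

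The test was limma 3.58.1 (R 4.3.3) on log2(value + 1) with its trend option, for genes with at least 10 in at least 5 libraries, without covariates, with BY adjustment over 12397 genes. Log2FC values on this scale understate changes of low genes. Alternatives on the whole reads were edgeR 4.0.16, which called 177 genes against 269 in limma, and DESeq2 1.42.0, which called 810. Scripts were tested on simulated data. Single genes and ratios were tested with exact two-sided permutation tests (SciPy 1.17.1). P-values set the difference between the stages against the spread between these tumors. In limma this spread was moderated with that of the other genes tested. A count of 0 was taken to allow up to 3 reads, for counting error only.

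The members, lists and ratios were chosen with earlier results of these data known. Named were the 8 members, of each list the genes called and those with the highest and lowest log2FC, and per member the 3 most correlated genes, without symbols that start with LOC. One gene that this rule names is not reported here. Within-stage correlations used deviations from stage means. Other settings were other pseudocounts, filters, scalings, adjustments, tools and leaving out each library.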

Additional observations from a re-analysis of the deposited data

How the results depend on the processing

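No paired analysis was possible because no replicate number is shown in the columns and the stages come from different dogs. Over all genes, 269 were called by limma with BY adjustment. The number was 1121 with BH adjustment, 418 with a weight per library, 177 with edgeR and 810 with DESeq2, and it lay between 49 and 260 when 1 library was left out (49 without early library 5, 75 without early library 1, and 87, 54, 66 and 113 without late library 1, 2, 4 or 5). Of the 8 homing genes 0 were called, 5 with BH adjustment, 3 with DESeq2 and 0 to 1 without 1 library. The exact test counted 6 of them, and 3 to 6 without 1 library (3 without early library 1 or 5 or late library 4). The counts of calls in the pathway lists also depended on the adjustment and tool. For other ligands they were 0, 3 with BH, 1 with DESeq2 and 0 to 1 without 1 library. For other receptors they were 0, 3 with BH, 1 with weights, 2 with DESeq2 and 0 to 1 without 1 library. For tissue egress they were 1, 2 with BH, weights or DESeq2 and 0 to 2 without 1 library. For follicle organization they were 1, 0 with a pseudocount of 0.5 or a mean of at least 50, 8 with BH, 3 with weights, 4 with DESeq2 and 0 to 2 without 1 library. For homing adhesion they were 2, 7 with BH, 4 with weights, 5 with DESeq2 and 0 to 3 without 1 library. For receptor signaling they were 2, 1 with edgeR and 1 to 2 without 1 library. The cause was not tested, apart from fewer samples or fewer genes by construction.

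With all genes of a list in place of those past the filter, 3 ratios passed at an adjusted p of 0.0423 by exact permutation, namely CXCR4 (-1.42) and S1PR1 (-2.59) to T cells and CCL21 (1.68) to lymphatic endothelium. All T cell markers had passed the filter, so that both T cell ratios and their p-values were those of the main analysis, and their adjusted p changed only through the lower p of CCL21. Both T cell ratios still show only that CXCR4 and S1PR1 rose less than the T cell markers, since lymphocyte content differs with stage by definition. With the median of a list, S1PR1 to blood endothelium turned to -0.17 and CXCL12 to fibroblasts to -0.29. Without 1 library, the ratios ranged from -1.44 to 0.059 for CCR7 to T cells, from -1.63 to -1.05 for CXCR4 to T cells, from -3.14 to -1.88 for S1PR1 to T cells, from 0.70 to 1.52 for CXCR5 to B cells, from -0.085 to 0.23 for S1PR1 to blood endothelium (-0.085 without late library 3, -0.034 without late library 5), from 0.46 to 1.15 for CXCL12 to fibroblasts, from 1.53 to 2.27 for CCL21 to lymphatic endothelium and from 0.53 to 1.67 for CCR7 to mature dendritic cells. Of the homing genes CXCR5 rested on the fewest reads, with 27 over the early libraries.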

Other observations

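The lists of the remaining cell types held no gene called by limma with BY adjustment. Of 9 macrophage markers limma called none with BY and 2 with BH adjustment, 5 had an unadjusted p of at most 0.05, edgeR called 0 and DESeq2 1, with a median log2FC of 1.01. MSR1, a scavenger receptor, had the highest log2FC (2.25 ± 0.55, limma BY-adjusted p = 0.177), and MRC1, a mannose receptor, the lowest (-0.88 ± 0.31, BY-adjusted p = 0.729). Of 3 tested plasma cell markers none was called by limma with BY adjustment, edgeR or DESeq2, and 1 was called with BH adjustment and had an unadjusted p of at most 0.05. PRDM1 had the highest (1.03 ± 0.27) and XBP1 the lowest log2FC (-0.17 ± 0.17). All 8 keratinocyte markers had a negative log2FC and none was called by limma with BY adjustment, edgeR or DESeq2, from -0.11 ± 0.89 for SFN to -1.42 ± 0.43 for TP63, which passed with BH adjustment. Their summed level was 934 to 16776 in the early and 707 to 8665 in the late libraries. Of 4 tested neutrophil markers none was called by any of these tests or had an unadjusted p of at most 0.05, from 1.47 ± 1.03 for CSF3R to -1.19 ± 1.36 for S100A8.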
